A study of Mus musculus with 10 samples.

Results

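Hepatokines are proteins that the liver secretes to act on its own metabolism or on other organs. Of the 21939 genes in the count table, 9 were described as hepatokines, namely Fgf21, Gdf15, Angptl4, Angptl8, Fetub, Ahsg, Lect2, Igfbp1 and Igfbp2, found by matching Ensembl identifiers to these symbols. All 9 were among the 13641 genes that reached at least 10 counts summed over the libraries. Their transcripts were counted in hepatocytes isolated from 10 male mice, labelled as 8 to 9 weeks old without saying whether at injection or at isolation: 3 control C57BL6/j mice, 2 Nrf2 flox/flox mice (Nrf2 KO), 2 p65 flox/flox mice (p65 KO) and 3 Nrf2:p65 double floxed mice (DKO). Every mouse, controls included, had received AAV8Cre, an adeno-associated virus in which the thyroxine-binding globulin promoter drives Cre in hepatocytes, 12 days earlier, and each library came from 1 mouse. The comparisons ask how hepatocytes respond when they lose Nrf2, the regulator of antioxidant genes, the NF-κB subunit p65, or both. The 9 genes were chosen by their differences between the 4 genotypes in these same libraries, so their levels and fold changes are given as a description and without p-values.

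FGF21 is an endocrine fibroblast growth factor that signals through FGF receptors with the co-receptor beta-Klotho (Klb). In the liver its gene is known to respond to fasting through the fatty acid receptor PPARα and to amino acid or mitochondrial stress through the transcription factor ATF4. GDF15 is a stress hormone sensed in the hindbrain, ANGPTL4 and ANGPTL8 restrain lipoprotein lipase, fetuin-B (Fetub) and fetuin-A (Ahsg) are plasma proteins of the cystatin superfamily, LECT2 is a secreted factor that binds the receptors MET and TIE1, and IGFBP1 and IGFBP2 bind insulin-like growth factors in plasma. Igfbp1 is a classical gene repressed by insulin and raised in fasting, whereas Angptl8 is induced by feeding.

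The promoter sequences of Fgf21, Angptl8 and Igfbp1 are shown because these genes differed most between genotypes and no annotated exon lies in the window. Each holds the 250 bases before the canonical transcription start, 5′ to 3′ on the strand of the gene in GRCm39, at chr7:45264915-45265164, chr9:21746536-21746785 and chr11:7147401-7147650, and capitals mark the motif matches.
Fgf21: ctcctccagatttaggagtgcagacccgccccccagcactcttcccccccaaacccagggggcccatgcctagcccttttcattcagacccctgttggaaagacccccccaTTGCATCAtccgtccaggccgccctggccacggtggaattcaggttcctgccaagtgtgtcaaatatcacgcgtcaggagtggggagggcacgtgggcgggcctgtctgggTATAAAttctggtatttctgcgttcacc
Angptl8: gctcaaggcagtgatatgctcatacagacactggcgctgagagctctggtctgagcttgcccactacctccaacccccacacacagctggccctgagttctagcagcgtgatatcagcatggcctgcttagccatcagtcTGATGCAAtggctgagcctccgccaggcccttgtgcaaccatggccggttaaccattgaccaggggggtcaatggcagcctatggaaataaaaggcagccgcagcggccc
Igfbp1: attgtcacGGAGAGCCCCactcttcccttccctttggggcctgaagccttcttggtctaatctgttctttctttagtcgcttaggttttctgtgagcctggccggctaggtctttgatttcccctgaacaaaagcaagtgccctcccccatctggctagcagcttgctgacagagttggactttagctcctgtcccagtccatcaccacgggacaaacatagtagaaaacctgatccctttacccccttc
In Fgf21 the capitals are an ATF4-C/EBP element, TGATGCAA on the opposite strand, 139 to 132 bases upstream of the start, and TATAAA 28 to 23 bases upstream. Angptl8 held TGATGCAA on its own strand 110 to 103 bases upstream. In Igfbp1 the capitals are a match to the NF-κB consensus 242 to 233 bases upstream. On either strand, TGATGCAA occurred in 67 of 13637 promoter windows of tested genes (0.491%), TATAAA in 7.8% and the NF-κB consensus in 8.27%. Among the other 6 members, the antioxidant response element core TGACNNNGC was found in Fetub and Ahsg (10.6% of windows) and the nuclear receptor half-site AGGTCA in Gdf15 (12%), and the FOXO core CAAAACA was in none of the 9 windows (5.54%). These matches describe the sequence and were not tested for binding.

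Total counts ranged from 33707165 to 49897382 per library (median 37043490.5). Levels below are counts divided by the TMM-scaled size of each library relative to the mean of these sizes. Size factors by the median-ratio method ran from 0.879 to 1.26 and were not used for these levels. Hepatocyte markers were abundant in every library, with 8 genes summing to between 3596947 and 5572017 normalized counts. Kupffer cell markers (12 genes) summed to 379 to 957 in control, 264 to 815 in Nrf2 KO, 4470 to 6083 in p65 KO and 1661 to 2924 in DKO, and all 12 were called higher in p65 KO (6 without p65 KO replicate 1) and 5 of 12 in DKO (0 without DKO replicate 1 or control replicate 1). Markers of sinusoidal endothelial cells (8 genes) summed to 699 to 1538, 879 to 1775, 3407 to 4899 and 1707 to 2688, and those of stellate cells (8 genes) to 160 to 365, 153 to 254, 1773 to 1793 and 291 to 805, in the same order. Clec4f, Stab2 and the other genes of these 3 lists had counts in at least 1 library. Markers of T and NK cells, B cells and neutrophils summed to at most 11.6, 9.14 and 18.9 normalized counts in any library. Erythroid markers (5 genes, of which Alas2 is also a gene of heme synthesis and held most counts) summed to 3362 to 4675 in control, 3649.5 to 3783 in Nrf2 KO, 3133 to 3516 in p65 KO and 4730.4 to 5605 in DKO, above every other library. All 5 were higher in DKO than in control (median log2 difference, 2.06), 0 called by edgeR and 3 by DESeq2, with 3 at an unadjusted p under 0.05. Against p65 KO the median was 2.96, with 0 called by edgeR, 4 by DESeq2 and 5 at an unadjusted p under 0.05. The part of these markers in the values of Fgf21, lowest in the same DKO libraries, was not tested. Fewer cells of a type and less RNA per cell cannot be told apart in such bulk samples. The targeted genes do not check the labels, because the table holds 1 total per gene and the deleted exons cannot be separated. Nfe2l2, which encodes Nrf2, was at 2100 ± 189 normalized counts in control (SD, n = 3) and 4872 ± 188 in Nrf2 KO (n = 2; edgeR, adjusted p = 0.00488), and Rela, which encodes p65, was at 1256 ± 29.9 in control and 1196 ± 18.6 in p65 KO (n = 2). The Nrf2 target Gstm1, a glutathione S-transferase, fell by 2.96 on the log2 scale in Nrf2 KO (edgeR, adjusted p = 0.000219).

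Fgf21 (ENSMUSG00000030827, chromosome 7, 45263301 to 45266963, minus strand) was the member with the widest range. Its normalized counts were 394, 248 and 273 in control, 117 and 88.1 in Nrf2 KO, 366 and 226 in p65 KO, and 22.1, 15.7 and 25.2 in DKO. The raw counts in DKO were 21, 14 and 22, so counting error weighs more there than in the other genotypes. Control and p65 KO overlapped, both Nrf2 KO libraries lay below all of them, and the 3 DKO libraries lay below every other library. On average Fgf21 was at 305 ± 78.3 in control (SD, n = 3), 102 ± 20.2 in Nrf2 KO (n = 2), 296 ± 98.9 in p65 KO (n = 2) and 21.0 ± 4.83 in DKO (n = 3). The control mean was 2.98 times that of Nrf2 KO and 14.5 times that of DKO.

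**Figure D1:**
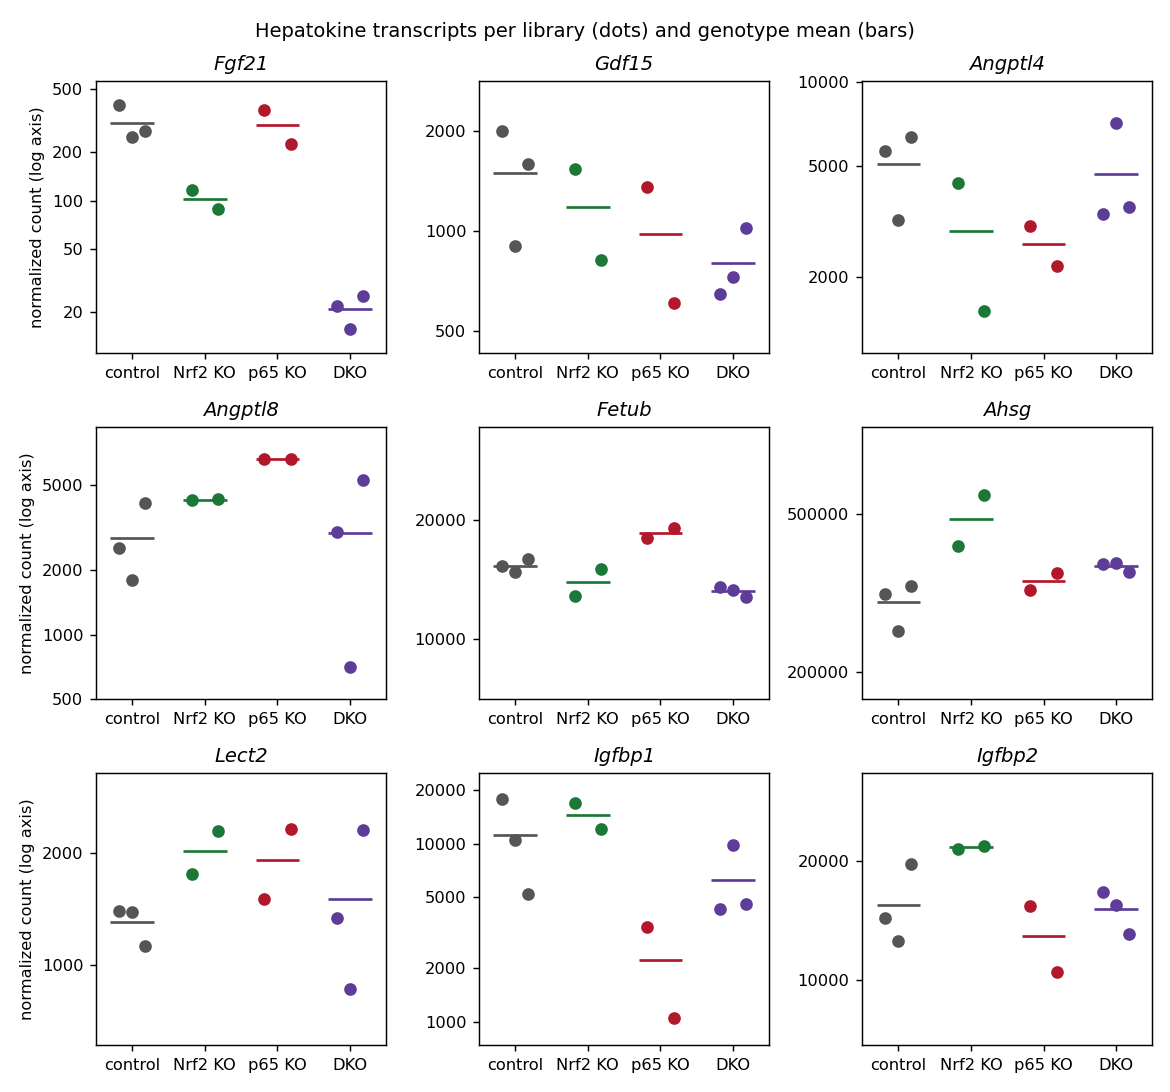
Normalized counts of the 9 hepatokine transcripts (log axes) in each library (dots) by genotype, with bars at the genotype means. Fgf21 in the 3 DKO libraries sat between 15.7 and 25.2, below the other 7 libraries at 88.1 to 394, whereas Gdf15 overlapped control in all 3 knockouts.

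On the log2 scale the difference from control was -1.58 (SE, 0.293) for Nrf2 KO, -0.04 (SE, 0.272) for p65 KO and -3.85 (SE, 0.300) for DKO. With Nrf2 present, p65 KO was thus near the control level, whereas with Nrf2 lost, DKO differed from Nrf2 KO by -2.28 (SE, 0.321). The interaction, which is the DKO to p65 KO difference minus the Nrf2 KO to control difference, was -2.23 (SE, 0.420). Equal scaling of library totals turned the p65 KO value to 0.14. That scaling moved the median of all genes by 0.18 in p65 KO, -0.27 in DKO against p65 KO and -0.27 in the interaction.

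A gene was called where its adjusted p did not exceed 0.05 and its log2 fold change was 1 or more, up or down. In Nrf2 KO 0.55% of all tested genes were called and 0.44% were called lower, and Fgf21 was the member among them. In DKO 2.38% were called against control (1.02% lower), 0.433% against Nrf2 KO (0.139% lower) and 1.78% against p65 KO (0.968% lower), and Fgf21 was again the member called, lower each time. For the interaction 0.455% of genes were called by edgeR and 0 of the 9 members, with 4 of 9 at an unadjusted p under 0.05 and 1, Fgf21, called by DESeq2. Since these contrasts chose the members, nothing is read from these counts. The Fgf21 call in Nrf2 KO was lost when control replicate 1, 2 or 3, Nrf2 KO replicate 1 or 2, or DKO replicate 1 was left out, with fold changes of -1.79 to -1.35 over the 10 omissions. Against Nrf2 KO, the DKO call was lost without Nrf2 KO replicate 1 (range, -2.47 to -2.06). The DKO values stayed called through all 10 omissions against control (-3.99 to -3.62) and against p65 KO (-4.12 to -3.42).

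Fut1, a fucosyltransferase gene on the opposite strand, overlaps Fgf21. Its mean was 15.8 ± 13.4 normalized counts in control and 0.755 ± 0.654 in DKO, far below Fgf21 in both. The library kit keeps strand, and the quantification was stated to use the setting for sense reads, whereas reads of such kits usually run antisense. Whether setting and reads matched was not tested, so the counts of Fgf21 and Fut1, and of Angptl8 and the Dock6 gene around it, may hold reads of the other strand.

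Across the 10 libraries, the genes whose log2(normalized count + 1) followed Fgf21 most closely, among 10184 genes that averaged 50 or more normalized counts, were Trabd (Pearson r = 0.986), Cog6 (r = 0.959), Coro1c (r = 0.953), Rec8 (r = 0.928) and Fam117a (r = 0.927). The 10 libraries share genotypes and isolation, and no p is given. Trabd ranged from 2580.3 to 2855 in control and from 1948 to 2170 in DKO, so its span was far narrower than that of Fgf21. Rec8 had 64.4 to 90.6 in control and 20.2 to 27.5 in DKO. With equal library totals the r of Coro1c was 0.893. Among the members, Fetub (r = 0.712), Gdf15 (r = 0.563) and Angptl8 (r = 0.408) varied with Fgf21 in the same sense, and Ahsg (r = -0.406) in the opposite one.

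**Figure D2:**
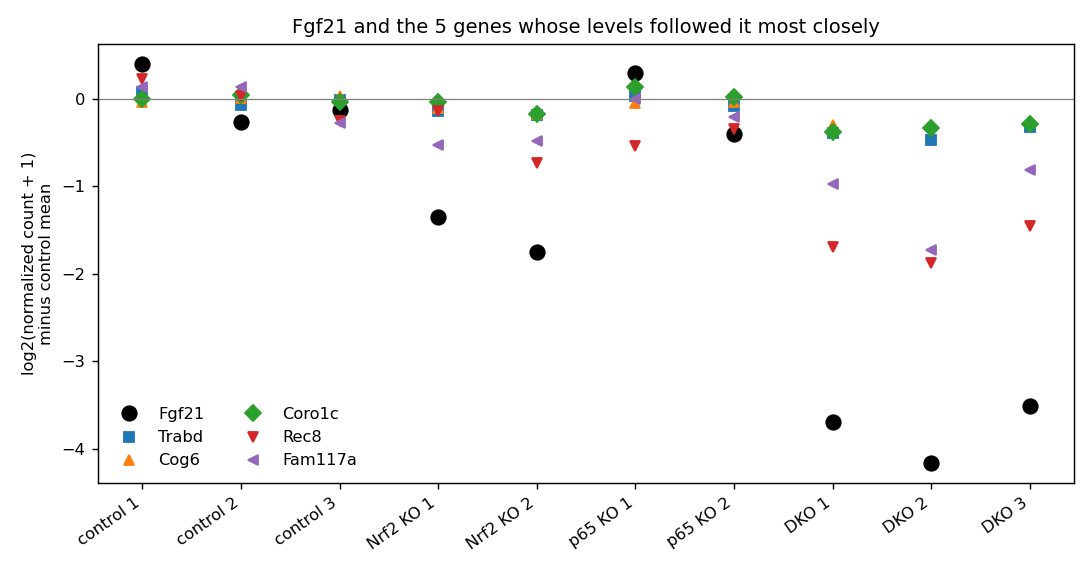
Log2(normalized count + 1) minus the control mean for Fgf21 (black) and the 5 genes most correlated with it, by library. All 6 genes were lowest in the DKO libraries, and Fgf21 spanned several log2 units while Trabd, Cog6 and Coro1c spanned less than 1.

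Gdf15 (chromosome 8, 71082038 to 71091537, minus strand) had 2007, 904 and 1590 normalized counts in control, 1539 and 818 in Nrf2 KO, 1360 and 605 in p65 KO, and 646, 728 and 1025 in DKO. The genotypes overlapped in each comparison. Its difference from control was -0.35 (SE, 0.402) in Nrf2 KO, -0.61 (SE, 0.407) in p65 KO and -0.91 (SE, 0.362) in DKO, and its interaction of 0.05 (SE, 0.567) changed sign with equal library totals (-0.26). The fold change in Nrf2 KO ranged from -0.87 to 0.04 when single libraries were left out.

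Genes of the integrated stress response, the ATF4 programme to which Fgf21 and Gdf15 are known to belong, mostly did not pass the test. Of 15 listed genes, 0 were called by edgeR or DESeq2 in Nrf2 KO, with 0 at an unadjusted p under 0.05. DESeq2 called 2 in p65 KO and 3 in DKO, and 3 and 6 had an unadjusted p under 0.05. Against p65 KO, DESeq2 called 3 in DKO, and 5 had an unadjusted p under 0.05. In DKO 11 lay below 0 and 4 above against control, and 12 below and 3 above against p65 KO. In p65 KO 2 were higher, the asparagine synthetase gene Asns by 2.06 (adjusted p = 0.0381) and Nupr1, a stress-induced chromatin protein, by 2.35 (adjusted p = 0.0169). In DKO 2 were lower, the serine synthesis gene Psat1 at -2.44 (adjusted p = 0.0282) and Nupr1 at -2.86 (adjusted p = 0.0278), all by edgeR. DKO differed from p65 KO by -3.10 in Psat1 (adjusted p = 0.0197) and -5.21 in Nupr1 (adjusted p = 0.00367), and the last stayed called whichever of the 10 libraries was left out. Atf4 itself differed by -0.11, -0.19 and -0.46 in Nrf2 KO, p65 KO and DKO, and Trib3 by -0.41, 0.30 and 0.04, without passing the test. The list median was -0.15, 0.21 and -0.46, against 0.0018, 0.0009 and 0.0246 over all genes tested. Psat1 averaged 79.5 ± 20.8 normalized counts in control, 37.0 ± 11.7 (Nrf2 KO), 125 ± 35.5 (p65 KO) and 14.6 ± 14.1 (DKO). Asns averaged 116 ± 54.4, 200 ± 86.7, 482 ± 140 and 260 ± 213 in the same order. The lowest mean of Psat1 was thus that of DKO and the lowest of Asns that of control. The numbers called fell to 0 of 15 in p65 KO without control replicate 1 or 3, and in DKO without control replicate 2 or DKO replicate 1. Nupr1 was named after its values were seen, because its mean lay under 50.

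The list of PPARα and its targets, the fatty acid oxidation genes with which Fgf21 is induced in fasting, held genes that fell in each of the 3 knockouts. Of 15 genes, 2 fell in Nrf2 KO, whereas 8 fell in p65 KO and 8 fell in DKO by edgeR. DESeq2 called 6, 8 and 8, and 11, 13 and 13 had an unadjusted p under 0.05. The list medians were -0.89, -1.41 and -1.31, beside the medians near 0 of all tested genes. Vnn1, a pantetheinase gene, fell by 1.86 in Nrf2 KO (edgeR, adjusted p = 0.00201) and the peroxisomal gene Ehhadh by 1.40 (adjusted p = 0.0427). These calls were kept in 9 and 3 of 10 omissions. Pdk4, which restrains glucose oxidation, fell by 4.18 in p65 KO (adjusted p = 0.00232) and 3.04 in DKO (adjusted p = 0.00523), in all 10 omissions. Cyp4a14, a fatty acid omega-hydroxylase, fell by 4.66 (adjusted p = 0.0166) and 4.22 (adjusted p = 0.0208). Its call in p65 KO was lost without either p65 KO library and that in DKO without DKO replicate 2. In p65 KO, where Pdk4 had 28.2 ± 9.64 normalized counts against 514 ± 142 in control, Fgf21 overlapped control. Ppara itself was at 2401 ± 654 in control, 4435 ± 1027 in p65 KO, where both libraries lay above all controls, and 1980 ± 505 in DKO. Its difference from control in p65 KO, 0.88 (edgeR, adjusted p = 0.0393), was under the fold threshold. It fell by 1.16 in DKO against p65 KO (adjusted p = 0.0339), a call lost without either p65 KO library or DKO replicate 1 or 3. The number called in Nrf2 KO dropped to 0 without Nrf2 KO replicate 2, and it dropped to 5 lower in p65 KO without p65 KO replicate 1, and to 5 in DKO without DKO replicate 2.

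**Figure D3:**
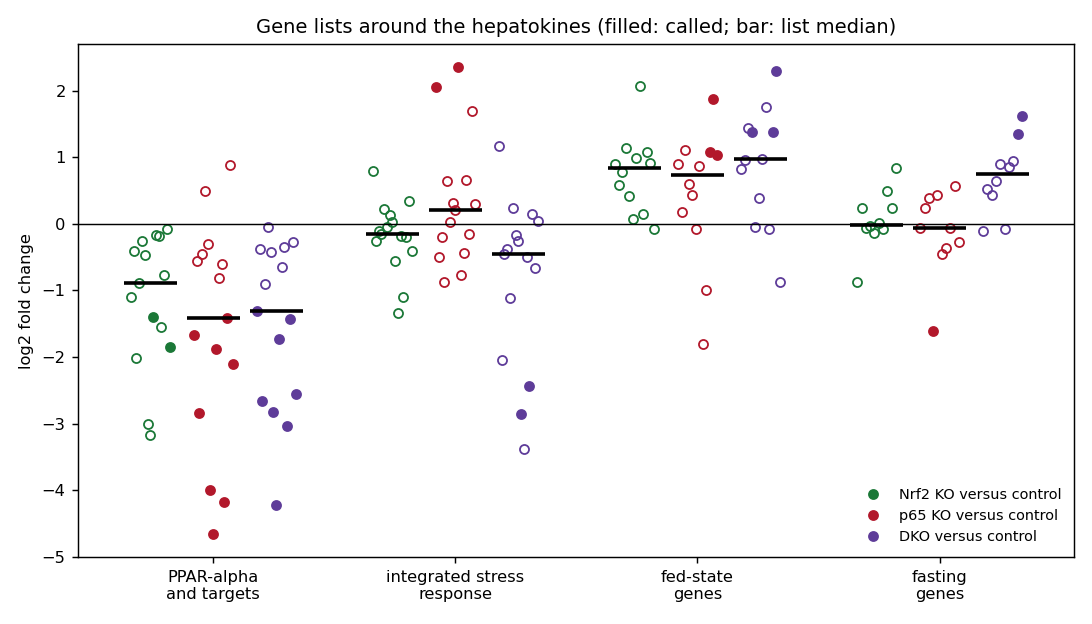
Log2 fold changes against control of the genes in 4 lists, with filled dots for called genes and bars at the list medians. The medians of the PPARα list lay below 0 in Nrf2 KO, p65 KO and DKO (-0.89, -1.41 and -1.31), those of the fed-state list above 0 (0.84, 0.73 and 0.97), and that of the fasting list was 0.75 in DKO.

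The FGF21 receptor list (Fgfr1, Fgfr2, Fgfr3, Fgfr4 and Klb) had 0 of 5 genes called by edgeR in any of the 6 comparisons. DESeq2 called 1 gene each in p65 KO, DKO and DKO against Nrf2 KO, and in each of these 2 genes had an unadjusted p under 0.05. Klb differed from control by 0.08, 0.12 and 0.11 in Nrf2 KO, p65 KO and DKO, at a control mean of 1127 normalized counts. Fgfr1 had 92.5 ± 46.2 in control, 241 ± 17.1 in p65 KO and 247 ± 163 in DKO. It was called higher in p65 KO without control replicate 3 or DKO replicate 2. The GDF15 receptor genes Gfral and Ret were at 0 in all 10 libraries.

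Angptl4 (chromosome 17, 33992724 to 34000804, minus strand) inhibits lipoprotein lipase in fasting tissues. It was at 5669, 3197 and 6330 normalized counts in control, 4340 and 1499 in Nrf2 KO, 3035 and 2181 in p65 KO, and 3343, 7133 and 3553 in DKO. Both p65 KO libraries lay below all control and all DKO libraries, and the other genotypes overlapped. Differences from control were -0.80 (SE, 0.462), -0.96 (SE, 0.465) and -0.12 (SE, 0.403), and the DKO value crossed 0 when single libraries were left out (-0.55 to 0.08). DKO replicate 2 had the highest level of all 10 libraries.

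Angptl8 (chromosome 9, 21746786 to 21748643, plus strand, inside Dock6 on the other strand) behaved differently. Its normalized counts were 2526, 1794 and 4120 in control, 4234 and 4312 in Nrf2 KO, 6605 and 6616 in p65 KO, and 3020, 706 and 5269 in DKO. Both single knockouts lay above all controls, Nrf2 KO by a narrow margin, whereas DKO spread from below the controls to above Nrf2 KO. Differences from control were 0.60 (SE, 0.577) in Nrf2 KO, 1.23 (SE, 0.575) in p65 KO and 0.09 (SE, 0.523) in DKO, where equal library totals gave -0.01. The interaction was -1.74 (SE, 0.814). Angptl8 was called in p65 KO when DKO replicate 2 was left out of the common fit (fold change range over all omissions, 0.99 to 1.61). Dock6 averaged 525 ± 154 in control and 494 ± 126 in p65 KO.

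DKO replicate 2 thus held the highest Angptl4 and the lowest Angptl8 of all libraries, and the lowest Lect2 and the highest Igfbp1 of the 3 DKO libraries. In it the 12 fed-state genes, which serve lipid synthesis and glycolysis, summed to 302517 normalized counts, the lowest of the 10 libraries. The other DKO libraries had 490559 and 1023656, p65 KO replicate 1 had 330349 and control replicate 1 had 340045. The 10 fasting genes of gluconeogenesis and amino acid breakdown summed to 468016 in DKO replicate 2, the highest, against 275965 and 318822 in the other DKO libraries. The paper states that food was freely available and that mice were sacrificed in the morning. Feeding state of each mouse was not given in the labels, and its part in these levels was not tested.

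Of the fed-state list, 3 of 12 genes rose in p65 KO and 3 in DKO, and 0 in Nrf2 KO by edgeR, with 2 by DESeq2 and 5 at an unadjusted p under 0.05. Thrsp, which serves lipogenesis, rose by 1.89 in p65 KO (edgeR, adjusted p = 0.0190) and 2.30 in DKO (adjusted p = 0.0121), and Srebf1, the lipogenic regulator, by 1.08 (adjusted p = 0.0210) and 1.39 (adjusted p = 0.0103). The medians were 0.84, 0.73 and 0.97 in Nrf2 KO, p65 KO and DKO. The counts fell to 0 higher in p65 KO without control replicate 3 and in DKO without control replicate 1, and rose to 7 in DKO at most. Of the other angiopoietin-like and lipase genes, 12 of 13 were tested. Lpl, the lipase that both proteins restrain, fell by 1.30 in DKO (edgeR, adjusted p = 0.0328), a call lost without control replicate 1, 2 or 3 or DKO replicate 2 or 3.

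Igfbp1 (chromosome 11, 7147651 to 7152546, plus strand) varied widely already among controls. It had 17755, 10527 and 5209 normalized counts in control, 16905 and 12141 in Nrf2 KO, 3414 and 1044 in p65 KO, and 4278, 9824 and 4559 in DKO. The p65 KO libraries lay below all others, Nrf2 KO overlapped control, and DKO overlapped control but lay below Nrf2 KO. Differences from control were 0.38 (SE, 0.552), -2.32 (SE, 0.611) and -0.84 (SE, 0.501). In p65 KO 6.59% of all genes were called, 1.54% lower, and Igfbp1 was the member that passed. This call was lost without control replicate 1 or 2 or p65 KO replicate 2, with fold changes of -3.42 to -1.71 over the 10 omissions.

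**Figure D4:**
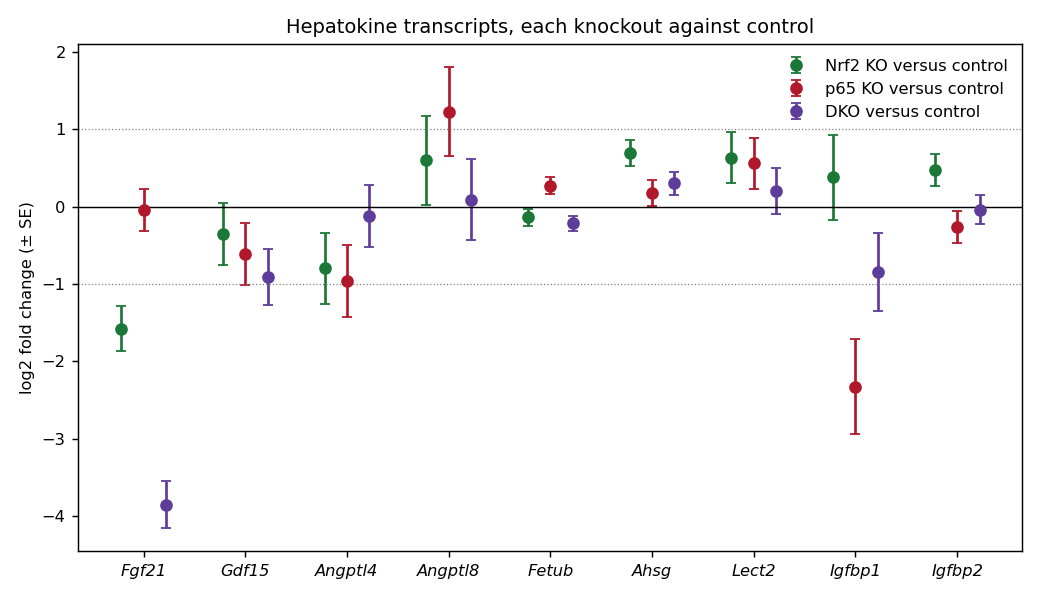
Log2 fold changes (± SE) of the 9 hepatokine transcripts in each knockout against control, with dotted lines at the threshold of 1 in either direction. Fgf21 in Nrf2 KO (-1.58) and DKO (-3.85) and Igfbp1 in p65 KO (-2.32) lay below -1 and were called, and Angptl8 in p65 KO (1.23) lay above 1 and was not.

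Of the fasting list, to which Igfbp1 is often added, G6pc1, the glucose-6-phosphatase gene, fell by 1.61 in p65 KO (edgeR, adjusted p = 0.0316) and was the 1 of 10 genes called there. In DKO 2 of 10 rose, among them the tyrosine aminotransferase gene Tat by 1.62 (adjusted p = 0.00766, in all 10 omissions), and the serine dehydratase gene Sds by 1.35 (adjusted p = 0.0363). Against p65 KO, DKO rose in G6pc1 by 2.26 (adjusted p = 0.0233) and in Tat by 1.89 (adjusted p = 0.0117), and both calls were lost without p65 KO replicate 1 or 2, that of G6pc1 also without DKO replicate 1. In Nrf2 KO 0 were called by edgeR or DESeq2, and 2 had an unadjusted p under 0.05. Against control, DESeq2 called 1 of 10 in p65 KO and 2 in DKO, and 1 and 6 had an unadjusted p under 0.05. The G6pc1 call in p65 KO was lost without control replicate 1 or 2 or p65 KO replicate 1 or 2, and the number called in DKO dropped to 1 without either of these control or p65 KO libraries or without DKO replicate 1 or 2. Clock genes moved with the same genotype. Of 16, 10 rose and 4 fell in p65 KO, and 5 rose and 2 fell in DKO, and Bmal1 fell by 4.93 in p65 KO (edgeR, adjusted p = 0.000914) and 2.16 in DKO (adjusted p = 0.0121), in all 10 omissions. Without p65 KO replicate 1, 6 rose and 2 fell in p65 KO, and without control replicate 1, 1 rose and 1 fell in DKO. The parts of the clock and of the marker genes of other cells in the Igfbp1 values were not tested.

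Igfbp2 (chromosome 1, 72863606 to 72891634, plus strand) was at 14321, 12556 and 19556 normalized counts in control, 21376 and 21786 in Nrf2 KO, 15332 and 10509 in p65 KO, and 16707, 15490 and 13088 in DKO. Both Nrf2 KO libraries exceeded all 8 others. Its difference from control was 0.48 (SE, 0.205) in Nrf2 KO, -0.26 (SE, 0.208) in p65 KO and -0.04 (SE, 0.185) in DKO. The neighbouring genes Igfbp3 (3539 bases from Igfbp1) and Igfbp5 (5456 bases from Igfbp2) were scarce, with control means of 7.35 ± 1.30 and 16.1 ± 7.30, and p65 KO means of 104 ± 20.6 and 60.0 ± 28.8. In the IGF axis list, 3 of 12 tested genes rose in p65 KO, namely Igfbp3, Igfbp5 and Igfbp7, Igfbp7 by 1.76 (edgeR, adjusted p = 0.00614), where the Kupffer, endothelial and stellate cell markers given above were also higher. Their part in these 3 genes was not tested. Igf1 differed by -0.15, 0.04 and 0.16 in Nrf2 KO, p65 KO and DKO.

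Ahsg and Fetub are neighbours on chromosome 16 (22710027 to 22718201 and 22736127 to 22758528, both plus strand), 17925 bases apart. Ahsg was the most abundant member per kilobase of transcript, at 214591 normalized counts per kilobase in control, followed by Igfbp2 (11725), Fetub (9765), Igfbp1 (6741), Angptl8 (3179), Angptl4 (1531), Lect2 (1478), Gdf15 (783) and Fgf21 (318). In the control libraries, Igfbp2 overlapped Fetub, Fetub overlapped Igfbp1 and Igfbp1 overlapped Angptl8. Angptl4 and Lect2 overlapped too, and the other neighbours in this order did not. In normalized counts, Ahsg was at 313054, 253708 and 329368 in control, 413643 and 555810 in Nrf2 KO, 320266 and 355024 in p65 KO, and 372653, 375953 and 357130 in DKO. All Nrf2 KO and DKO libraries lay above all controls, with differences of 0.70 (SE, 0.166) and 0.30 (SE, 0.150), and p65 KO overlapped control (0.18, SE 0.167).

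Fetub had the smallest spread of the 9, with 15275, 14785 and 15933 normalized counts in control, 12861 and 15051 in Nrf2 KO, 17965 and 19023 in p65 KO, and 13522, 13357 and 12754 in DKO. The p65 KO libraries lay above all others and the DKO libraries below all controls. Its differences from control were nonetheless small, -0.14 (SE, 0.112), 0.27 (SE, 0.111) and -0.21 (SE, 0.0995). The 2 fetuin genes therefore did not share their order of genotypes, since Ahsg was highest in Nrf2 KO and Fetub in p65 KO. Hrg, which encodes histidine-rich glycoprotein and follows Fetub at 11293 bases, was at 22495 ± 1207 in control and 31991 ± 384 in p65 KO. Of 5 other cystatin superfamily genes 0 were called by edgeR or DESeq2 against control, with 0, 2 and 1 at an unadjusted p under 0.05 in Nrf2 KO, p65 KO and DKO.

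Lect2 (chromosome 13, 56684477 to 56696569, minus strand) was at 1398, 1388 and 1124 normalized counts in control, 1757 and 2292 in Nrf2 KO, 1510 and 2332 in p65 KO, and 1343, 863 and 2314 in DKO. Both single knockouts lay above the controls, and DKO ran from the lowest of the 10 libraries to just below the highest, that of p65 KO replicate 2. The differences from control were 0.64 (SE, 0.329), 0.56 (SE, 0.329) and 0.21 (SE, 0.299), and the last ranged from -0.24 to 0.49 over the 10 omissions.

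Over the 9 members, the libraries did not overlap with control for 5 in Nrf2 KO, 4 of them higher, for 5 in p65 KO, 3 of them higher, and for 3 in DKO, 1 of them higher. Of all tested genes, 28.5% did not overlap in Nrf2 KO (14.8% higher, 13.6% lower), 50% in p65 KO (26.2% and 23.8%) and 26.5% in DKO (13.2% and 13.2%). The median member difference was 0.38, -0.04 and -0.12. Against Nrf2 KO, DKO did not overlap for 4 members, all lower, where 32.2% of all genes did not (15.8% higher, 16.4% lower). Against p65 KO the DKO libraries did not overlap for 3 members higher and 3 lower, where 38.6% of all genes did not (18.5% higher, 20.1% lower).

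Of 17 other secreted liver factors, 1 rose in Nrf2 KO, 2 rose in p65 KO and 1 rose in DKO. Lcn2, a lipocalin that binds bacterial siderophores, rose by 2.67 in p65 KO (edgeR, adjusted p = 0.00361) and 3.16 in DKO (adjusted p = 0.00189), in all 10 omissions. Inhbe, an activin subunit made by hepatocytes, rose by 1.37 in p65 KO (adjusted p = 0.0178), and its difference between DKO and p65 KO was -1.70 (adjusted p = 0.0197), a call lost without either p65 KO library or DKO replicate 1. Enho, which encodes adropin, rose by 1.26 in Nrf2 KO (adjusted p = 0.0411), a call kept in 2 of 10 omissions. The Inhbe call in p65 KO against control was kept in 6 of 10, being lost without control replicate 1 or 2 or either p65 KO library.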

How the data were processed

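Poly-A RNA of hepatocytes from 10 mice was sequenced, 1 library per mouse. The authors quantified reads with Salmon 1.10.3 in its stranded setting against GRCm39 and GENCODE M33, per the paper and the submitters' processing notes, and deposited 1 table named as normalized. Its columns hold whole numbers with unequal totals (33707165 to 49897382) and size factors, so the deposited values were used as estimated counts, rounded by the authors. The step from transcripts to genes is not given in the sources used here. No column was left over.

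Counts were normalized by TMM and tested with edgeR 4.0.16 (quasi-likelihood) in R 4.3.3, with all 4 genotypes in 1 fit and no covariates. Genes with at least 10 counts summed over libraries were kept (13641; 6302 were at 0 everywhere). Adjusted p-values are Benjamini-Hochberg values per comparison, and a gene was called at an adjusted p up to 0.05 with a log2 fold change of 1 or more in size. Standard errors were derived from the fold change and its F statistic. A normalized count is the count divided by the TMM-scaled size of its library relative to the mean of these sizes. Labels do not say whether the mice were littermates. The p-values rest on the spread between mice within genotypes, estimated over all 4 genotypes together and partly shared across genes. Replicates of a genotype differed by more than sampling noise, so none was taken for a copy. On simulated data the fit was checked to recover large known changes in genes averaging 50 or more counts, for the comparisons with control. No known change was set that was smaller, in scarcer genes or in the other comparisons.

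The 9 members and all gene lists were chosen with earlier results of these data known. Members got no p-value. Named were the members, the targeted genes, up to 2 called genes per direction in each list and comparison that averaged 50 or more normalized counts, the 5 genes most correlated with Fgf21 on log2(normalized count + 1), and neighbouring or overlapping genes. Positions were read from GENCODE M39 (21926 of 21939 identifiers found) and promoter windows from GRCm39. Alternatives were DESeq2 1.42.0, its size factors in edgeR, equal totals, no filter, a mean of 10 counts, a replicate block, only the genotypes compared, and each library left out. Figures used matplotlib 3.10.9.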

Additional observations from a re-analysis of the deposited data

Results flagged for a closer look

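The difference of Angptl8 with Nrf2 loss was above 0 in the presence of p65 and below 0 in its absence, and edgeR called neither. With p65 intact, both Nrf2 KO libraries lay above all controls (0.60 on the log2 scale, SE 0.577), at the closest by 4234 against 4120. With p65 lost, the 3 DKO libraries lay below both p65 KO libraries (-1.14, SE 0.575). Of all tested genes, 28.5% and 38.6% did not overlap in these comparisons either. The interaction was -1.74 (SE, 0.814), which neither edgeR nor DESeq2 called, and no p is given because Angptl8 was chosen with these contrasts known. DKO replicate 2 had the lowest level, and the value ranged from -2.42 to -1.28 when single libraries were left out.

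Nupr1, of the integrated stress response list, differed between the 2 settings by the interaction term, at -4.66 (SE, 0.863; edgeR, adjusted p = 0.0493). Nrf2 KO differed from control by -0.56 and DKO from p65 KO by -5.21. Control averaged 22.1 ± 11.7 (SD, n = 3), Nrf2 KO 14.9 ± 9.84 (n = 2), p65 KO 114 ± 38.4 (n = 2) and DKO 2.98 ± 1.39 normalized counts (n = 3), so that the last is near 3 counts. The call was kept in 1 of 10 omissions of a library, that of Nrf2 KO replicate 1.

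Serpina6, which encodes the corticosteroid-binding globulin, had an interaction of -1.89 (SE, 0.331; edgeR, adjusted p = 0.0375). It was higher in Nrf2 KO than in control by 0.99, without passing the test (adjusted p = 0.114), and differed between DKO and p65 KO by -0.90 (adjusted p = 0.0574). Its means were 3361 ± 749, 6684 ± 1470, 8789 ± 1115 and 4703 ± 1262 in control, Nrf2 KO, p65 KO and DKO. The call was kept in 3 of 10 omissions, those of control replicate 3 and DKO replicates 2 and 3.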

How the results depend on the processing

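No called value changed direction under these alternatives. The edgeR fit called 75 genes in Nrf2 KO, 899 in p65 KO, 325 in DKO, 59 in DKO against Nrf2 KO, 243 in DKO against p65 KO and 62 in the interaction. DESeq2 called 135 in Nrf2 KO, 541 in DKO, 292 in DKO against Nrf2 KO, 453 in DKO against p65 KO and 249 in the interaction. Equal totals gave 504 in DKO against p65 KO and 118 in the interaction. No filter gave 112 in DKO against Nrf2 KO and 137 in the interaction. With only the genotypes compared, 215 genes were called in DKO, 18 in DKO against Nrf2 KO and 105 in DKO against p65 KO. Other counts under these 4 alternatives stayed within 1.5 times.

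Of the members, Fgf21 was called in the interaction, giving 1 in place of 0, by DESeq2, with equal totals, with no filter and with the replicate block. Igfbp1 and Angptl8, 2 in place of 1, were called in p65 KO with the block and with only the genotypes compared, and 0 in DKO against Nrf2 KO with only the genotypes compared. The causes were not tested. Leaving out 1 library gave 18 to 84 genes in Nrf2 KO, 325 to 954 in p65 KO, 147 to 316 in DKO, 18 to 81 in DKO against Nrf2 KO, 70 to 294 in DKO against p65 KO and 8 to 119 in the interaction, and 0 to 1, 0 to 2, 1 to 1, 0 to 1, 1 to 1 and 0 to 0 members in that order.

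Same-numbered libraries did not deviate together more than differently numbered ones. Deviations of same-numbered libraries from their genotype means correlated at -0.232 to 0.113 (1 of 13 pairs over 0.1), and 2 of 10 libraries correlated best with their own number. Those of differently numbered libraries correlated at -0.170 to 0.232 (6 of 24 pairs over 0.1). In a genotype with 2 libraries the 2 deviations mirror each other, so the pairs are not independent and this check cannot exclude pairing. The replicate block gave 37 genes in DKO against Nrf2 KO and otherwise kept the counts of genes within 1.5 times. With 2 or 3 mice per genotype and few counts of Fgf21 in DKO, small differences could not be resolved.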

Other observations

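Acute-phase genes, plasma proteins that the liver makes more of in inflammation, moved in both directions. Of 14, 1 rose and 2 fell in p65 KO, and 2 rose and 1 fell in DKO. Saa3, an inducible serum amyloid gene, fell by 2.99 in p65 KO (edgeR, adjusted p = 0.00391) and by 2.57 in DKO (adjusted p = 0.00565), in all 10 omissions of a library. Orm2, an orosomucoid gene, rose by 1.95 in p65 KO (adjusted p = 0.0199) and 2.45 in DKO (adjusted p = 0.0115), calls kept in 6 and 9 of 10 omissions. The numbers called depended on single libraries, and without control replicate 2 Saa3 was the only 1 of the 14 called in DKO. Saa1 and Saa2 are near-identical copies, and the counts could be split between them.

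Of the 6 genes that fall in the acute phase, with Alb and Ttr among them, 1 rose in p65 KO, Serpina6 by 1.39 (edgeR, adjusted p = 0.00514), in all 10 omissions. In Nrf2 KO and DKO 0 were called by edgeR or DESeq2, and 2 and 1 had an unadjusted p under 0.05. Ahsg, also known to fall in inflammation, was higher than control in the Nrf2 KO and DKO libraries.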
